A study of Mus musculus with 6 samples.

Results

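The normal uterine blastocyst of the mouse is described here from the 2 arrays of normal pregnant mice, out of 6 arrays in the series. Their probes were ranked by mean signal among those above background on both arrays, which held for 15459 of 45281 probes (34.1%). The study dealt with gene expression in mouse blastocysts, and its other 4 arrays (embryos from ligated oviducts or from mice given the compound the labels call ICI) are not used here. Superovulated CD-1 females, an outbred stock, had received 5 IU of PMSG and, after 44 h, 5 IU of hCG before mating, with the plug morning counted as day 1. Each array carried amplified, biotin-labelled cRNA of 1 pool of 100 to 120 uterine embryos. Their age is given both as day 3.5 and as day 4 post coitum, and a time of 70 h after hCG stands in the labels where it can mean collection or treatment. The labels do not say whether the pools came from separate sets of females, so what the gap between the arrays measures is not known.

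The blastocyst is the last stage before implantation. Its outer epithelium, the trophectoderm, pumps fluid into the cavity, attaches to the uterus and forms the placenta. The inner cell mass holds the epiblast, which gives rise to the body of the embryo, and the primitive endoderm, which lines the yolk sac. Cdx2 marks trophectoderm, Pou5f1 and Nanog mark the epiblast, and Gata6 marks primitive endoderm. All 4 were above background on both arrays.

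Signal is the mean brightness of the beads that carry a probe, in arbitrary units as deposited, and values are given as replicate 1 and then replicate 2. A probe was called detected at a detection p-value under 0.05, the platform's measure of signal over background, which corresponded to a signal of about 90.8 on replicate 1 and 88.0 on replicate 2. Of 19057 named genes, 8938 (46.9%) had a detected probe on both arrays, and each gene is described by its brightest such probe. A gene called not detected did not pass on both arrays, and where it passed on a single array this is said. Mean signals over all probes were 375 and 356, and 36.5% and 37.6% of probes were detected on each array. Detected probes differed between the arrays by a median of 0.14 on the log2 scale, and 98.6% of them lay within 1.5-fold. The number of arrays limits the precision.

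Different probes bind with different strength, so a rank is a rank of probe signal and not of transcript number. In 3153 genes with several detected probes, the brightest exceeded the dimmest by a median of 2.27-fold (quartiles 1.40 and 5.29). This spread is far wider than that between the arrays and is the error to read any rank with. Signals just above the threshold carry little: 30 of 1071 olfactory receptor genes (2.80%), which serve smell in the nose, were detected too, the brightest of them Olfr724 at a mean of 125. Their number was 10 at a detection p-value under 0.01, and 50 or 55 on a single array (replicate 1 and replicate 2). Above that level stood 7187 of the 8938 detected genes. Replicate 2 stood apart from replicate 1 in genes of the oocyte, as described further on, so levels of those genes are read from each array alone.

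Ribosomal protein genes were the most numerous family at the top of the ranking, with 31 of the 100 brightest genes. The detected genes spanned a mean signal of 89.6 to 33874, a 378-fold range, with a median of 312. Only 113 genes exceeded 10000 and 2055 exceeded 1000, whereas 3295 (36.9%) lay under 200. The top 100 genes carried 19.4% of the summed signal of detected genes, and the top 1000 carried 60.6%.

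**Figure D1:**
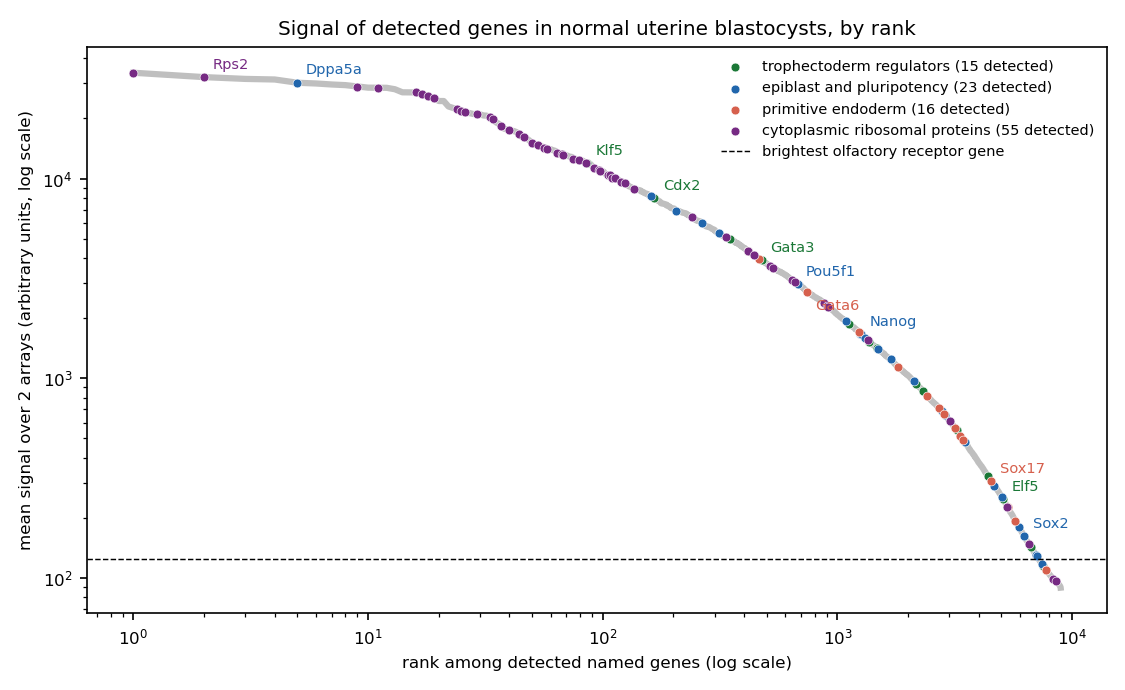
Mean signal over the 2 arrays (arbitrary units, log scale) against rank for the 8938 detected genes (grey line, log scale), with coloured points for the members of 4 lists and a dashed line at the brightest olfactory receptor gene. Ribosomal protein genes crowd the top of the curve, while regulators of the 3 lineages spread along its whole length, from Dppa5a at rank 5 to genes near the dashed line.

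Rplp1, a protein of the ribosomal stalk that recruits translation factors, ranked highest with signals of 34609 and 33139. Rps2 of the small ribosomal subunit followed with 31967 and 32450. Eef1a1, which delivers aminoacyl-tRNA to the ribosome, gave 32429 and 30671. These 3 values differ by far less than probes of a single gene do, so their order among themselves is not resolved. Genes of this kind have many processed pseudogenes with near-identical sequence, so signal of a single copy is uncertain. In all, the top 100 genes (signals of 10878 and more) held 31 cytoplasmic ribosomal proteins, 7 replication-dependent histones, 4 genes of the translation factor list (Eef1a1, Eef1g, Eif4a1 and the nucleolar protein Npm1), 4 proteasome subunits and 4 subunits of ATP synthase, and 69 of the 100 fell in a listed family.

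Several of the top 30 genes belong to none of these families. Ckb, the brain-type creatine kinase that regenerates ATP from phosphocreatine, gave 30147 and 29022. Psap, the precursor of saposins that help degrade sphingolipids in lysosomes, gave 30783 and 27953. Cstb, a cytosolic inhibitor of cathepsins, gave 29054 and 25015. Further lysosomal products stood just below, namely Gm2a, the activator of ganglioside breakdown (22573 and 18833), and Cd63, a tetraspanin of lysosomal membranes (20965 and 17323). Dppa5a, an RNA-binding protein of pluripotent cells, was the brightest lineage gene of all at rank 5, with 30223 and 30148, and its other probe gave 30169 and 27011. Of the 100 brightest probes 46 carry no single gene symbol in the annotation used and stay unnamed here.

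Histone H2A was encoded by H2ac24, H2ac20, H2ac10, H2ac13 and H2ac7 of the 30 brightest genes, with H2ac24 at 32686 and 29992. Replication-dependent histone genes are near-identical copies of each other, and their probes may share transcripts, so the level of a single copy is uncertain. Of 55 such genes 45 were detected, at a median signal of 338. H2B copies were dim, and the brightest of them, H2bc7, gave 417 and 463. The replacement variants, made throughout the cell cycle, were detected in 8 of 10 cases, led by H2az1 (6455 and 7278) and Macroh2a1 (5691 and 5966).

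Regulators of the trophectoderm were detected in 15 of 18 cases (83.3%). This and all later list counts are to be read against the 46.9% of all named genes that were detected. That share was 35.4% among genes with 1 probe and 59.3% among genes with 2 or more, as any 1 detected probe counted. With every probe of a gene required, 9 trophectoderm regulators passed. Since whole pools were measured, fewer cells of a type and less RNA per cell cannot be told apart for any lineage gene below. Klf5, a zinc finger factor needed for trophectoderm formation, was brightest with 13372 and 10521 at rank 86, although its other probe was not detected (68.9 and 69.7). Cdx2, the homeobox factor that fixes trophectoderm fate, had 1 probe at 9414 and 6552. Tfap2c, an AP-2 factor that acts with it, gave 5515 and 4444.

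Below these came the receptor Fgfr2, through which trophectoderm responds to FGF4 of the epiblast, at 4477 and 4164. Gata3, a zinc finger factor that acts beside Cdx2, gave 4090 and 3715. Tead4, the DNA-binding partner of YAP that starts the programme, gave 1415 and 1417. Eomes, a T-box factor of trophoblast stem cells, gave 441 and 658, and Elf5, an ETS factor of the same cells, gave 245 and 251. Ascl2, Msx2 and Hand1, of which Ascl2 and Hand1 act in the later placenta, were not detected. Both arrays gave the same order for Klf5, Cdx2, Tfap2c, Fgfr2 and Gata3, but neighbours in it differ by less than probes of a single gene often do.

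Among Hippo pathway genes, which read cell position and set Cdx2 through Tead4, 13 of 17 (76.5%) were detected, and 8 with every probe of a gene required. Tead2 (2479 and 1999) was the brightest TEAD factor, and all 4 TEAD genes were detected, Tead3 near the threshold at 98.5 and 89.1. The coactivators Wwtr1 (636 and 754) and Yap1 (512 and 501) were moderate. Neither Lats1 nor Lats2, the kinases that inhibit them, nor their activators Nf2 and Amot passed the threshold. Other upstream genes were detected, namely Stk4 (796 and 675), Mob1a (471 and 479), Sav1 (347 and 319) and Mob1b (175 and 152). So were the Amot relatives Amotl2 (227 and 219) and, near the threshold, Amotl1 (101 and 95.5).

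The epithelial machinery of the trophectoderm was detected in 20 of 23 genes. Krt8 and Krt18 pair into the keratin filaments of simple epithelia, and Krt8 gave 12214 and 11568 at rank 87. Krt18 gave 8905 and 8638. The tight junction protein Cldn4 gave 12580 and 10538, and Cldn6 gave 5103 and 3321. These junctions seal the cavity, which fills by ion transport: Atp1b1, the beta subunit of the sodium pump, gave 4238 and 3474. Water and glycerol channels of the aquaporin family followed with Aqp9 (2798 and 2702) and Aqp3 (1844 and 1901). The adhesion protein Cdh1, or E-cadherin, gave 1475 and 1684. Krt19, Dsc2 and Jup were not detected. A further Krt8 probe stayed at background, with 74.2 and 70.1.

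Pluripotency and epiblast genes were detected in 23 of 26 cases, over a wide span of signals. Below Dppa5a stood Dppa3, a maternal and germ cell protein that protects methylated DNA, at 8837 and 7438. Tfcp2l1, a factor of naive pluripotency, gave 7163 and 6615. Sall4, a zinc finger factor of the inner cell mass, gave 5201 and 5428. The central factor Pou5f1, or OCT4, gave 3535 and 2405, and its other probe gave 2887 and 2472. Its partner Nanog gave 1691 and 1634, with the other probe at 447 and 549. Sox2, which binds DNA together with OCT4, was close to the floor at 166 and 158, and its other probe was not detected. Each of these 3 factors was thus present, but their probes differ enough that no order of the transcripts follows.

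Secreted factors of the epiblast were mostly dim. Bmp4, which later signals to the trophectoderm, gave 1738 and 1447, and Gdf3 gave 1328 and 1157. Nodal, a TGF-beta ligand, gave 120 and 136, and its coreceptor Tdgf1 gave 236 and 273. Of its inhibitors, Lefty2 gave 247 and 333 and Lefty1 gave 113 and 122. Nodal and Lefty1 straddle the brightest olfactory receptor gene and are read as unresolved. Fgf4, the epiblast signal for both other lineages, was at 83.3 and 92.6, detected on replicate 2 only. Fgf5, a marker of the later, primed epiblast, was not detected on either array.

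Primitive endoderm genes were detected in 16 of 24 cases (66.7%), with a median signal of 613 over those detected, against 312 over all detected genes. The endocytic adaptor Dab2 led with 4562 and 4095. Lrp2, or megalin, the receptor it serves, gave 4170 and 3766. Gata6, the factor that opposes Nanog within the inner cell mass, gave 2955 and 2482, and its other probe gave 196 and 172. Basement membrane genes came next, with Lamc1 at 1705 on each array, Lama1 at 1061 and 1221, and Col4a1 at 793 and 620. Pdgfra, a receptor of early primitive endoderm, gave 571 and 558, and Sox17, a factor of its commitment, gave 292 and 320. The visceral endoderm genes Amn, a partner of cubilin, (490 and 497), Apoa1 (222 and 230) and Hnf4a (180 and 205) were detected, whereas Foxa2, Afp, Ttr and Apob were not. Gata4, a factor of primitive endoderm like Gata6, was not detected with its 1 probe (63.4 and 61.0). Dab2 and Lrp2 are also expressed in other epithelia, and the arrays do not assign a transcript to a cell.

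**Figure D2:**
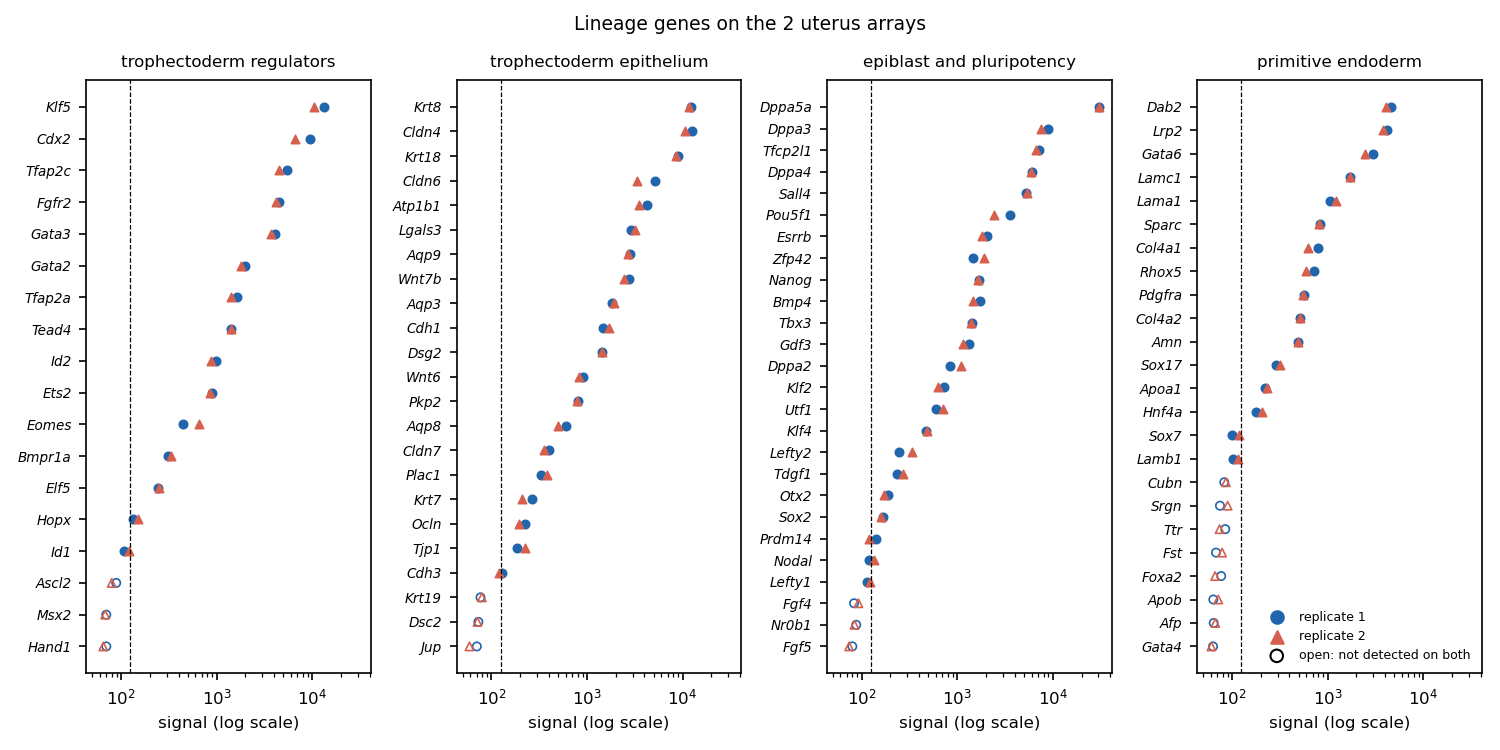
Signal (arbitrary units, log scale) of every measured gene of 4 lineage lists on replicate 1 (circles) and replicate 2 (triangles), with open symbols for genes not detected on both arrays and a dashed line at the brightest olfactory receptor gene. The 2 symbols of a gene nearly coincide, and each list runs from genes such as Klf5, Krt8, Dppa5a and Dab2 down to the dashed line and below.

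Families of the basic cell machinery were detected nearly in full, against 46.9% of all named genes. Of 62 cytoplasmic ribosomal proteins 55 were detected, at a median signal of 11958. Mitochondrial ribosomal proteins reached 73 of 76, at a median of 1553. Complex I of the respiratory chain reached 34 of 35, complexes II to IV 23 of 29 and ATP synthase 15 of 16. Atp5b, the catalytic subunit of ATP synthase, was the brightest of these at 28422 and 27600. Transcripts of the mitochondrial genome were detected for 7 of 8 genes, led by CYTB, cytochrome b, with 24162 and 24735, and ND6, encoded on the light strand, passed on replicate 2 only.

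Protein folding and turnover were as fully represented. The cytosolic chaperonin, which folds actin and tubulin, was detected in all 9 listed genes, with Cct6a at 8140 and 8378. Of these 9, 7 stood above the brightest olfactory receptor gene. Hspa8, the constitutive HSP70 chaperone, gave 16581 and 14836, whereas its stress-induced relatives passed on replicate 2 only, Hspa1a with 82.5 and 148 and Hspa1b with 68.2 and 96.4. Proteasome subunits reached 32 of 39, led by Psmb4 at 15034 and 12759. The translation factor list, which also holds the nucleolar proteins Npm1 and Ncl and the histone chaperone Nap1l1, reached 18 of 19. The exception, Tpt1, the growth-related protein TCTP, had 1 probe at 76.7 and 75.7. Of 34 aminoacyl-tRNA synthetases 32 were detected, with Gars, which charges glycine tRNA, at 13019 and 11593.

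Glycolysis and glucose uptake were detected in 18 of 24 genes. Slc2a3, the glucose transporter on the outer face of trophectoderm, led with 6982 and 6124, and Slc2a1 gave 687 and 825. Gapdh gave 4846 and 4262. Of the lactate dehydrogenase subunits, Ldha gave 265 and 293 and Ldhb was not detected, nor were the monocarboxylate carriers Slc16a1 and Slc16a7, while Slc16a3 passed on replicate 1 only. Antioxidant enzymes were detected in 20 of 21 cases, led by Gpx1 (15406 and 13901), a glutathione peroxidase, and Fth1 (12243 and 14241), the iron-storing ferritin heavy chain. The brightest solute carrier among 143 detected of 316 was Slc25a5 (14383 and 11909), the ADP/ATP carrier of mitochondria, followed by Slc2a3 and the creatine transporter Slc6a8 (7085 and 5983).

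Some families known from differentiated tissues were little detected. No Pax factor was detected of 9, and 8 of 38 Hox factors passed, the brightest Hoxd4 at 227 and 202. Of 49 keratins 7 were detected, and beyond Krt8 and Krt18 none exceeded the 366 and 351 of Krt10. Connexins reached 3 of 16, while claudins (9 of 20, or 45%) and integrins (10 of 25, or 40%) lay close to the 46.9% of all named genes. Gja1, or connexin 43, was the one bright connexin at 9229 and 7897. Among defensins 1 of 50 was detected, among vomeronasal and taste receptors 2 of 203, among the prolactin family, whose placental members appear after implantation, 1 of 24. On replicate 1 alone these counts were 2, 7 and 2, and on replicate 2 alone 4, 8 and 2. Of the liver and gut list 0 of 15 genes were detected on both arrays, and Lct alone passed on replicate 2 only, at 90.7 and 88.6. Alb passed on neither array.

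**Figure D3:**
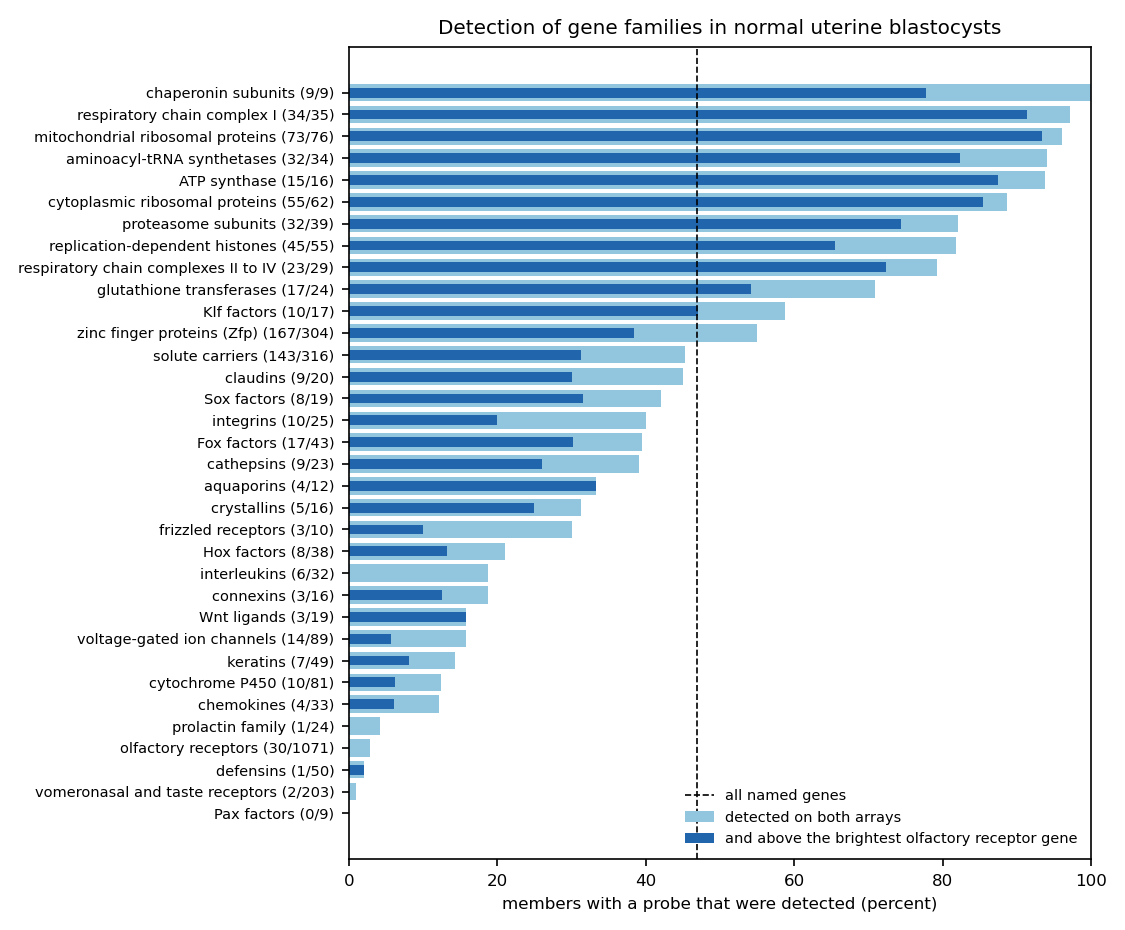
Share of the members of 34 gene families that were detected on both arrays (light bars, percent), with the share that also exceeded the brightest olfactory receptor gene (dark bars), detected and measured numbers in brackets and a dashed line at 46.9% for all named genes. Families of translation, respiration and protein folding lie far right of the line, and chemoreceptors, defensins, prolactins and Pax factors lie near 0.

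Of the Wnt ligands 3 of 19 were detected: Wnt7b at 2755 and 2463, Wnt3a at 2241 and 2611, and Wnt6 at 918 and 820. Fzd5 (1482 and 1264) was the one frizzled receptor of 10 clearly above the floor. Among FGF genes, Fgfr2 was bright and Fgfr1 was at 130 and 131, while Fgf10, a ligand known from lung and limb mesenchyme, gave 525 and 504 with another probe at 553 and 436. Igf2, the fetal growth factor, gave 996 and 940, and Igf2r, the receptor that clears it, gave 1088 and 985. Insr, the insulin receptor, gave 406 and 359, and Igf1r was near the threshold at 108 and 97.4. Of the receptor pair for LIF, Il6st was not detected and Lifr passed on replicate 1 only (102 and 86.3), whereas the downstream mediators Stat3 (1171 and 977) and Socs3 (1804 and 1533) were detected. The cytokine receptor genes Il6ra (121 and 151), Csf2ra (115 and 93.6) and Csf1r (108 and 90.6) passed on both arrays near the threshold. Receptors of the EGF family included Erbb2 at 781 and 629 and Egfr at 98.0 and 90.6, barely over the threshold.

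The list of steroid receptors, other nuclear receptors and coactivators was detected in 8 of 22 cases (36.4%, against 46.9% of all named genes). None of the 8 was a receptor of a steroid hormone, and they included the coactivators Ep300 and Crebbp. The estrogen receptor genes Esr1 and Gper1 and the progesterone receptor gene Pgr were not detected, and the estrogen receptor gene Esr2 passed on replicate 2 only, at 83.8 and 109. The steroid receptor genes Nr3c1 and Nr3c2 and the coactivators Ncoa1, Ncoa2 and Ncoa3 were not detected either. The estrogen-related receptor Esrrb, an orphan receptor of the pluripotency network that does not bind estrogen, was brightest at 2054 and 1825. Rxrb, the partner of many nuclear receptors, gave 1617 and 1385, and Ppard, a receptor for fatty acid derivatives, gave 847 and 800. A lack of detection here is a bound at background and not a measured absence.

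The DNA methylation list, which holds enzymes that write or erase the mark and other proteins such as Trim28, Mbd2 and Mbd3, was detected in 9 of 11 genes. Trim28, not such an enzyme, was the brightest at 10680 and 8117. The de novo methyltransferase Dnmt3b gave 7596 and 7294, and its cofactor Dnmt3l gave 7068 and 6706. The maintenance enzyme Dnmt1 gave 452 and 540, its recruiter Uhrf1 gave 3748 and 3625, and the demethylating dioxygenase Tet1 gave 1513 and 1348. Dnmt3a was undetected with all 3 of its probes, and Tet3 was undetected too. Among imprinted genes 13 of 25 were detected (52%, close to the 46.9% of all named genes), at a median signal of 195, and among them Gab1 was brightest at 2170 and 1778. Xist, the RNA that silences an X chromosome in females, had 4 detected probes, the brightest at 1052 and 897. Its activator Rlim gave 4758 and 4000, and the Y-linked genes Eif2s3y (95.8 and 89.7) and Usp9y (114 and 114) lay near the threshold. The labels do not say that embryos were sexed.

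The ranking used no sequence, so promoter sequence was set beside it. Of the named genes, 15207 had a RefSeq promoter (assembly GRCm38.p6, 250 bases before to 50 after the start). A promoter was called CpG-rich at an observed over expected CpG ratio of 0.6 or more and a GC content of 50% or more. CpG-rich promoters made up 70.7% of 7325 detected genes, against 34.5% of 6821 genes not detected, where chemoreceptor genes were left out. Seen the other way, 68.8% of genes with a CpG-rich promoter were detected, against 32.1% of the rest. Across rank bands the share was 70.4% in the top 100 ranks, 77.0% in ranks 2001 to 4000 and 60.6% from rank 6001 on. Lists differed far more, from 88.9% of 9 replacement histones and 80.4% of 51 ribosomal proteins to 6.25% of 16 oocyte genes, 5.88% of 34 keratins and 0 of 907 olfactory receptors. Genes are not replicates, and these shares are descriptions.

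The last 120 bases before the start of 9 genes show this range, written 5′ to 3′ on the strand of the gene with each CG pair in capitals. Rps2 and Atp5b stand for the bright machinery, Cdx2 and Gata3 for trophectoderm, Pou5f1 and Nanog for epiblast, Krt8 for an epithelial gene, Zp3 for an oocyte gene and Alb, albumin, for an undetected liver gene. The promoter of Gata6 is named only.
Rps2 at chr17:24719943-24720062 on the plus strand: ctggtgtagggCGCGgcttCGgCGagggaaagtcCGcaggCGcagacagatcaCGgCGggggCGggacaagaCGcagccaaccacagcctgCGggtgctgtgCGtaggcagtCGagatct
Atp5b at chr10:128083187-128083306 on the plus strand: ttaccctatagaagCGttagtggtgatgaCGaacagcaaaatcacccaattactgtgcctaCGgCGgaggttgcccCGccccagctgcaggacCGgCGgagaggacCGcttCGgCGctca
Cdx2 at chr5:147307250-147307369 on the minus strand: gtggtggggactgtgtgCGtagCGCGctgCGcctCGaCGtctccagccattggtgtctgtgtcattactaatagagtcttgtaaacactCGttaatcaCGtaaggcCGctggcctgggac
Gata3 at chr2:9878601-9878720 on the minus strand: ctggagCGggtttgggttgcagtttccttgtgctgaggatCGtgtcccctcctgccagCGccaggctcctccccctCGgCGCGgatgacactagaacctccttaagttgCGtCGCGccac
Pou5f1 at chr17:35505912-35506031 on the plus strand: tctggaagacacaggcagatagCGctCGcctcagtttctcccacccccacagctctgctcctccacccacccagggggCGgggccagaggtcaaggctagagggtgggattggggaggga
Nanog at chr6:122707369-122707488 on the plus strand: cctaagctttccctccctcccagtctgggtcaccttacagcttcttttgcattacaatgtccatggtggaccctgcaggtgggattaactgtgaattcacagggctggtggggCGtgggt
Krt8 at chr15:102004343-102004462 on the minus strand: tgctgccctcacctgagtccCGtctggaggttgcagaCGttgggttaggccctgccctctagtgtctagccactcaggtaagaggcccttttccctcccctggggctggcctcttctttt
Zp3 at chr5:135979985-135980104 on the plus strand: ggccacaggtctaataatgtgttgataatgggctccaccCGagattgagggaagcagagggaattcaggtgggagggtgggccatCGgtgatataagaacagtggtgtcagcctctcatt
Alb at chr5:90460750-90460869 on the plus strand: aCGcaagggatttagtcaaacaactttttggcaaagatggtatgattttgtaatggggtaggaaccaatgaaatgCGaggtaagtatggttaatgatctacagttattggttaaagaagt
Rps2 holds 13 CG pairs in this stretch, Atp5b 10, Cdx2 9 and Gata3 9. Pou5f1 holds 3, Krt8, Zp3 and Alb 2 each, and Nanog 1. Krt8, at rank 87, and Alb, not detected, therefore have equally few.

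Among the top 100 genes, 57 of 81 promoters were CpG-rich. Those that were not included the promoter of Nme2, a nucleoside diphosphate kinase with signals of 17531 and 14855, which held 3 CpG pairs in its 300 bases. The promoters of Fth1 (4 pairs), Cd63 (6), Krt8 (6) and Cldn4 (9) were alike in this. Khdc3, an oocyte gene at rank 139, had 0 pairs.

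The letters CCGGAAG, a core bound by ETS-family factors such as GABP, were searched on both strands of the 250 upstream bases. They occurred in 14.8% of detected genes and in 5.81% of undetected genes without chemoreceptors, and in 9.73% of all promoters. Among ribosomal proteins 16 of 51 promoters held them (31.4%), and among mitochondrial ribosomal proteins 17 of 67 (25.4%). The match in 5 bright ribosomal protein genes is shown in capitals, written CTTCCGG where it lies on the other strand.
Rps2 at chr17:24719920-24719959 on the plus strand: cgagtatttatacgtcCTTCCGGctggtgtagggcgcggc
Rpl41 at chr10:128549201-128549240 on the minus strand: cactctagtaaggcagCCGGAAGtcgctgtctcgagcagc
Rpl38 at chr11:114668544-114668579 on the plus strand: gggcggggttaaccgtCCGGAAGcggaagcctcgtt
Rpl37 at chr15:5116574-5116612 on the plus strand: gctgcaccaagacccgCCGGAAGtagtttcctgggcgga
Rpl27a at chr7:109519010-109519049 on the plus strand: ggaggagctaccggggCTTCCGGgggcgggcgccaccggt
The match in Rpl38 begins 20 bases before the annotated start, in Rpl37 23, in Rpl41 56, in Rps2 127 and in Rpl27a 169. No trophectoderm regulator, keratin or oocyte promoter held the letters, which says nothing of the factors themselves. The letters TATAAA, on the strand of the gene and 45 to 16 bases before the start, occurred in 12 of 34 keratin and 13 of 50 replication-dependent histone promoters, against 2.82% of all promoters.

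**Figure D4:**
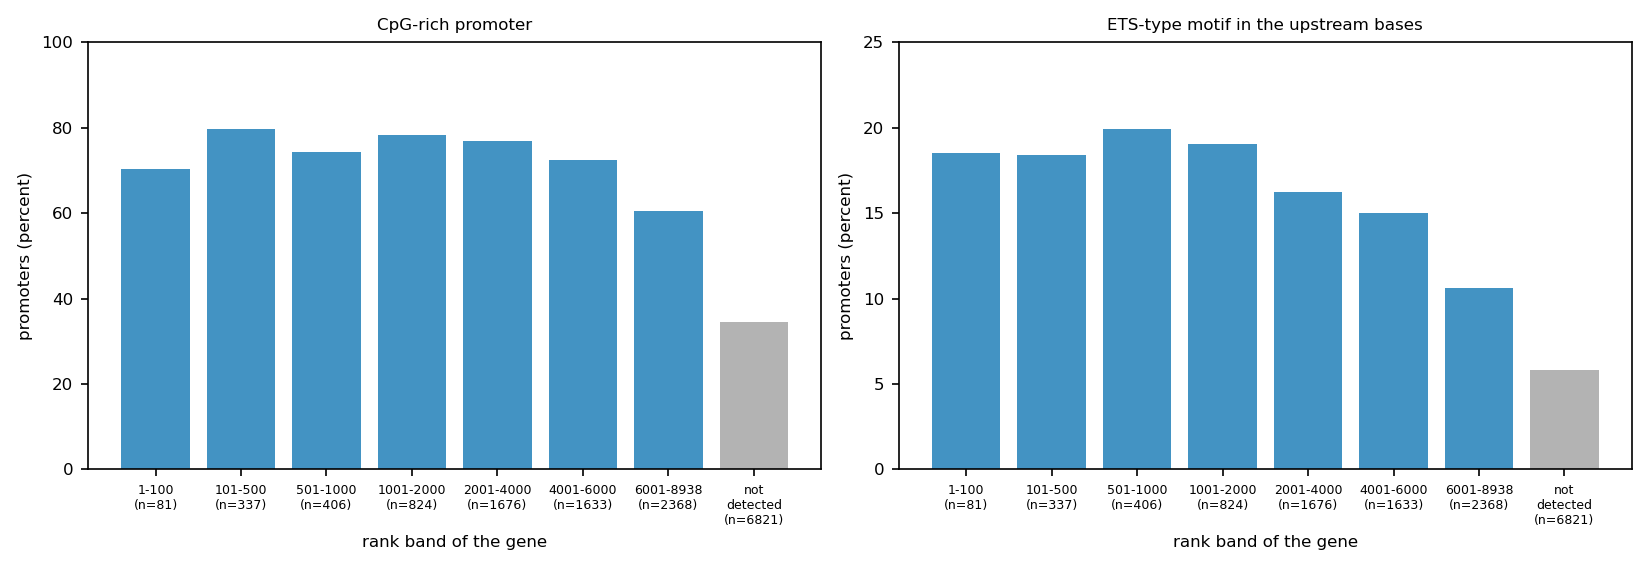
Share of RefSeq promoters (percent) that are CpG-rich (left) or hold the ETS-type motif in the upstream bases (right), by rank band of the gene (blue) and for genes not detected, chemoreceptors left out (grey), with the number of promoters under each bar. The left panel lies between 60.6% and 79.8% for detected genes against 34.5% in grey, and the right panel lies between 10.6% and 19.95% for detected genes against 5.81% in grey.

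Few genes differed widely between the arrays. Of 8938 detected genes 21 (0.235%) were over 2-fold apart, 4 of them higher on replicate 1 and 17 (0.19% of all) higher on replicate 2. After background correction with neqc the count was 57, of which 10 were higher on replicate 1 and 47 on replicate 2. Genes that passed on a single array are outside these counts, among them S100a8 and Igfbp5, a binding protein of IGF (87.2 and 326). With 1 array a pool no test of a difference was made. Oocyte genes made up 8 of the 17. Gdf9, an oocyte growth factor, gave 178 on replicate 1 and 2069 on replicate 2, an 11.6-fold gap. Nlrp14, a maternal NLR protein, gave 144 and 1630, and Nlrp5, or MATER, of the subcortical maternal complex, gave 115 and 1137. Padi6, a protein of the cytoplasmic lattices of the egg, gave 219 and 1493. The zona pellucida protein Zp3 gave 134 and 426.

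All 21 oocyte genes detected on either array were brighter on replicate 2, and the whole list of 23 summed to 16979 and 25950. Of the 21, 10 genes, among them Oosp1 (76.1 and 290) and the oocyte linker histone H1f8 (74.7 and 193), were detected on replicate 2 only and 0 on replicate 1 only. Over all 45281 probes, 1579 were detected on replicate 2 only and 1066 on replicate 1 only. Of all named genes, 9444 passed on replicate 1 and 9715 on replicate 2. Khdc3 (8547 and 9082) and Ooep (6015 and 6321), both of the subcortical maternal complex, were bright and alike on both arrays. Of the cumulus and granulosa markers none of 11 was detected on both arrays. Inha, a subunit of inhibin, passed on replicate 2 only, at 79.3 and 317. Fshr and Amh also passed on replicate 2 only, near the threshold, and Cyp11a1 on replicate 1 only. The list summed to 855 and 1110, with background not subtracted here or in the other sums. Most of that gap was Inha, and 6 of the 11 genes were brighter on replicate 2. Lineage lists did not follow the pattern of the oocyte genes: 6 of 18 trophectoderm regulators, 10 of 26 epiblast genes and 13 of 24 primitive endoderm genes were brighter on replicate 2. Smaller shifts were seen in some others of the 74 lists. All 7 detected mitochondrial genome genes were brighter on replicate 2, by a median log2 ratio of 0.29. So were 8 of 9 chaperonin genes (median 0.11) and 7 of 8 detected Sox factors (0.05). The median over all detected probes was -0.05.

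Genes over 2-fold higher on replicate 1 were the globins Hba-a1 (1179 and 426), Hbb-bt (898 and 327) and Hbb-bs (1019 and 402), and Prap1, a protein of uterine epithelium (1190 and 448). Of the 13 blood and immune markers, Elane, Csf1r and Cd3e also passed on both arrays, all with signals of 108 or less. S100a8, a calcium-binding protein of neutrophils, ran the other way at 70.9 and 516, as did S100a9 (72.7 and 229) and Cd14 (89.5 and 136), and these 3 passed on replicate 2 only. Ppbp, Alas2, Lyz2, Ptprc and Itgam passed on neither array. The list thus had 5 detected members on replicate 1 alone and 8 on replicate 2 alone, with sums of 2989 and 2281. The uterine epithelium list held 6 detected of 14 (42.9%, close to the 46.9% of all named genes) and summed to 6660 and 5941. Most of that was Wfdc2, a secreted protease inhibitor of many epithelia, at 4256 and 4312, while Ltf, lactoferrin of the estrogen-stimulated uterus, gave 200 and 137. Wfdc2 was also the 1 detected of 11 oviduct markers, and Ovgp1, the oviduct glycoprotein, was not detected. Stroma and muscle markers reached 4 of 15 (26.7%), none above the brightest olfactory receptor gene. The part of other cells in any signal reported here was not tested.

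**Figure D5:**
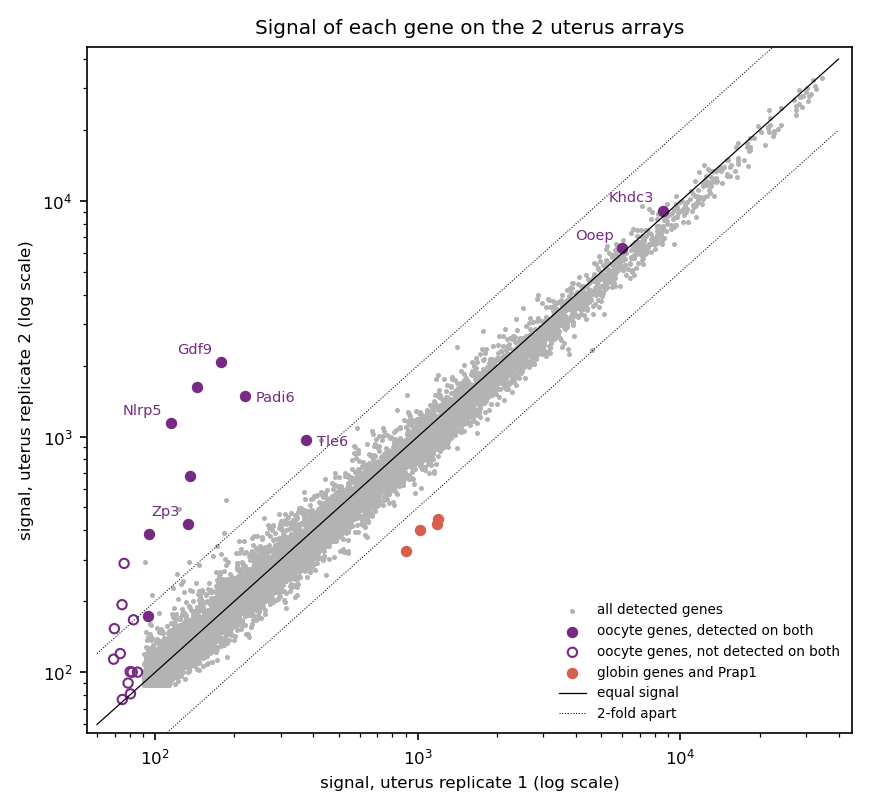
Signal of each detected gene on replicate 2 against replicate 1 (arbitrary units, log scales), with oocyte genes in purple, open where not detected on both arrays, and globin genes and Prap1 in red, between dotted lines 2-fold from equality. Gdf9, Nlrp5, Padi6, Tle6 and Zp3 lie above the upper line and the 4 red points below the lower one, while Khdc3 and Ooep lie on the diagonal.

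The genes nearest to the detection threshold show how it divides near-equal signals. Just inside stood Diras1 (90.9 and 88.3), Lce1c, Psca, Rb1cc1 and Rcor3. Just outside stood Pls1 (90.6 and 116), A3galt2, Cyp2a5, Gfra3 and Bcl2l10, an oocyte-rich relative of BCL2 that gave 90.6 and 272.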

How the data were processed

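Gene expression was measured in 2 pools of normal uterine blastocysts, 1 Illumina array each. The authors deposited, per the file headers, a mean bead signal (an intensity, not normalized between arrays), its standard error, a detection p-value and the number of beads, for 45281 probes. The median was 44 beads a probe, with a bead coefficient of variation of 3.69% and 3.82%. Which scanner software was used remains not given in the sources used here. The authors' processed values, centred per probe, were not used. Signals were ranked as deposited, since no groups were compared and no test was made.

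Names came from the platform annotation (34885 probes with 1 symbol, 18 with several, 10378 with none), of which 34807 matched RefSeq genes of GRCm38.p6 with 0 symbols changed. A gene is represented by its brightest probe detected on both arrays. Named genes are the 4 markers, the 30 of highest rank, members of lists of 30 or fewer, the 6 highest and 3 lowest and up to 6 undetected of larger lists, the 12 of largest ratio between arrays each way and the 5 on either side of the threshold. Genes named outside this rule (Gm2a, Cd63, Nme2, H2bc7, Rpl27a, Ccnd1 and Ccnd3) were chosen after their values were seen. The 74 lists and the members were chosen with earlier results of these data known. The histone pattern was rewritten because older symbols found no probe, the integrin and crystallin patterns were narrowed, and lists of replacement histones and mitochondrial genome genes were added after the data were seen. Alternatives were a detection p-value under 0.01, single arrays, other probe rules, and neqc values with an offset of 16 (limma 3.58.1 in R 4.3.3). Ranking was tested on simulated data. Tables were made with pandas 2.3.3 and numpy 2.4.6 in Python 3.11.15, and figures with matplotlib 3.10.9.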

Additional observations from a re-analysis of the deposited data

How the results depend on the processing

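No paired analysis was possible because a single group is described and no result comes from a test. Among the alternatives tried, requiring every named probe of a gene to be detected changed the counts most: 5342 genes in place of 8938, and 735 listed genes in place of 1114. With a single array (leaving out each replicate in turn) the counts ran from 16525 to 17038 probes, 9444 to 9715 genes and 1195 to 1261 listed genes. A floor at the brightest olfactory receptor gene, chosen after seeing the data, left 7187 genes and 859 listed genes. The top 100 probes held 16.1% of summed signal, 16.3% at a detection p-value under 0.01, 15.9% with detection on at least 1 array, 17.2% after neqc, and 15.94% to 16.05% with a single array. After neqc, which subtracts background, 57 genes in place of 21 were over 2-fold apart between the arrays, 47 of them higher on replicate 2 and 9 of these in the oocyte list. The 24 genes of largest ratio kept their sign there. Of the 30 brightest genes, 24 stayed in the top 30 when detected probes of a gene were averaged, and 28 or more under the other settings. Among 34 ranked genes, averaging moved 26. Low signals limit the calls: near the threshold a detected gene is not separated from olfactory receptors.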

Other observations

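Some genes known from other tissues stood above the median of detected genes (312) on both arrays. Mylpf, a myosin light chain of fast skeletal muscle, gave 2080 and 2312, and its other probe gave 1760 and 1791. Of the muscle and heart list, Mb (103 and 97.6) and Des (99.3 and 97.5) also passed near the threshold, Ckm passed on replicate 1 only, and Myod1 and Myog were not detected. Mbp, or myelin basic protein, gave 828 and 730 with its 1 detected probe of 5. Of the neural list Syp and Syn1 also passed, with signals below the 125 of Olfr724, Gfap passed on replicate 2 only, and Olig2 and Snap25 were not detected. Crygd, a gamma crystallin of the lens, gave 505 and 513. Foxp3, the factor of regulatory T cells, gave 776 and 755 with its brightest probe, but a further probe gave 107 and 98.5 and the remaining ones did not pass on both arrays. Sox21 (977 and 980) was brighter than Sox2, each by its own probe. Cyp2s1 (5630 and 4340) was the one bright cytochrome P450 among 10 detected of 81.

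Cell cycle genes were detected in 24 of 32 cases. Cdc20, an activator of the anaphase-promoting complex, gave 5524 and 5407, and Birc5, or survivin, gave 5668 and 5053. The replication helicase subunits Mcm4 (5246 and 5215) and Mcm5 (5305 and 4994) were as bright, whereas Pcna, the sliding clamp, was at 112 and 120 with its single probe. Of the D cyclins, Ccnd3 gave 2884 and 2535, Ccnd1 gave 385 and 296, and Ccnd2 was not detected. Apoptosis genes were detected in 11 of 16 cases (68.75%, against 46.9% of all named genes), led by the survival factor Mcl1 (2138 and 2153). Only 4 passed when every probe of a gene had to be detected.

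By chromosome, chemoreceptors left out, the share of named genes detected ran from 43.3% on chromosome 1 to 54.6% on chromosome 11. It was 38.2% of 704 genes on the X chromosome and 2 of 19 on the Y chromosome. Genes are not replicates, and no test was made.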
